A study of Mus musculus with 4 samples.

Results

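The genes described here are 38 genes of luminal epithelial identity and cell junctions, chosen by name: simple keratins, surface glycoproteins, junction proteins, epithelial splicing and transcription factors, the matriptase protease system and trafficking proteins. They were read on 4 one-colour microarrays of mouse mammary gland RNA. Of the 38 genes, 36 had at least 1 probe whose accession matched a mouse RefSeq gene, out of 18951 genes named on the array, and 31 were bright enough to be tested, out of 13204. Ddr1 and Spint2 had no probe with a matching accession and were not analysed. Each gene is represented by its brightest probe over the 4 arrays.

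The KO group was 2 samples labelled as knockout for stathmin (KO 1 and KO 2), and the WT group was 2 samples labelled wild type for it (WT 1 and WT 2). All 4 came from 13-week-old female mice that carry the Δ16HER2 transgene, an oncogenic HER2 variant, and were taken before tumours appeared. Both groups therefore carry the oncogene, and no gland without it was measured. Whether the samples of a group are different animals is not given in the labels, so p-values measure only the spread between these samples, which may be technical. The description field names EOC cells instead of mammary gland, and was not used.

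In the mammary gland, luminal epithelial cells line the ducts and alveoli and hold an apical surface that faces the lumen. They are built on simple keratins and are sealed to each other by tight junctions, adherens junctions and desmosomes. Grainyhead-like and Ovol factors keep this programme on, and ZEB and SNAI factors, which bind the E-box sequence CAGGTG, repress it when epithelial cells become mesenchymal. The membrane protease matriptase and its Kunitz-type inhibitors regulate the barrier that the junctions form.

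The promoters of these genes show what they share in sequence. RefSeq promoter windows (build GRCm38.p6, 250 bases before the start and 50 after it) were at hand for 27 of the 38 genes, in 37 windows. The E-box CAGGTG, searched on both strands as CAGGTG or CACCTG, was present for 21 of the 27 genes (77.8%), against 22.6% of the 27025 genes with a window and 21.5% of the 10510 tested genes with a window. The median GC content was 61% in the 37 windows, 60% in those of the tested genes and 52.7% in all windows. The Grainyhead-like core AACCNGTT was in 5 of the 37 windows (13.5%), those of Cgn, Muc1, Rab25 and Prom1, which has it in a pair of windows, against 2.09% of all windows. The stricter form AACCGGTT, which lies within AACCNGTT, was in none of the 37 windows and in 0.146% of all windows. The Ovol core CCGTTA was in 2 windows, both of Crb3 and overlapping, or 5.41% against 2.76%. The 250 bases before the start are printed for 5 genes as examples, with the E-box and the Grainyhead-like core in capitals.
Ap1m2, chr9:21312334-21312583, minus strand: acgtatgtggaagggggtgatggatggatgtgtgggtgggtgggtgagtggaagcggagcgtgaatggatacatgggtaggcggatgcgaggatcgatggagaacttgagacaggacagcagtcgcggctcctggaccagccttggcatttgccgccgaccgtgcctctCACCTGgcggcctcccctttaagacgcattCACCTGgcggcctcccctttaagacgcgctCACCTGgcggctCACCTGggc
Lsr, chr7:30973470-30973719, minus strand: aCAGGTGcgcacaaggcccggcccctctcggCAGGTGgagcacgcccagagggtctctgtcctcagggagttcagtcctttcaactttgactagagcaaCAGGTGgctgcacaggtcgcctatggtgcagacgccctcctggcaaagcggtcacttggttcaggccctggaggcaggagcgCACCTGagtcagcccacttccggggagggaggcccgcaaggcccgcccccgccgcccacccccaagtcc
Epcam, chr17:87635729-87635978, plus strand: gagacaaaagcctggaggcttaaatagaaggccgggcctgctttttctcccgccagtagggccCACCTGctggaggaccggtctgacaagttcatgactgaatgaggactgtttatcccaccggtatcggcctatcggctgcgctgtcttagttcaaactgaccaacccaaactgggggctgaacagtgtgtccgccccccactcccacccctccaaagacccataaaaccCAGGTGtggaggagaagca
Cldn4, chr5:134946935-134947184, minus strand: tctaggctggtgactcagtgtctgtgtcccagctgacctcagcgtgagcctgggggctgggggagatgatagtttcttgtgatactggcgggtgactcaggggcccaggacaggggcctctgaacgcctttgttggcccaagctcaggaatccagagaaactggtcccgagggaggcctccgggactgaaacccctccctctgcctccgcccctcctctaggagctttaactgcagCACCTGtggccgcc
Rab25, chr3:88548280-88548529, minus strand: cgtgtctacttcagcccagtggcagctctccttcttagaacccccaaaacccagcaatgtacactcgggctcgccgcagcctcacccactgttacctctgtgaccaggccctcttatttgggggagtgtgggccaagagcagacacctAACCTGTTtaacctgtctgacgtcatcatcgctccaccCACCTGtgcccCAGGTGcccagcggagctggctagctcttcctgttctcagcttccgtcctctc
Ap1m2 and Lsr each held 4 E-boxes, the nearest to the start at 9 bases before it in Ap1m2 and 69 bases in Lsr. Epcam, Cldn4 and Rab25 held 2 each, and the second one of Cldn4 began 12 bases after the start, outside the stretch printed. Rab25 alone of these 5 also had the Grainyhead-like core. A match is a run of letters and not a measured binding site.

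The arrays had 54.7% to 66.2% of spots well above background, no saturated spot and Pearson correlations of 0.967 to 0.979 across probes. Their 75th percentile of signal was 291 and 160 on KO 1 and KO 2, against 191 and 144 on WT 1 and WT 2. The median signal was 30.0 and 23.8 on the KO arrays, against 28.0 and 19.2 on the WT arrays. The 75th percentile thus stood farthest above the median on KO 1, and the choice of scaling point matters most for that array. All 4 arrays shared 1 slide and 1 scan, with the WT samples in its first positions and the KO samples in the next ones, so genotype and place on the slide cannot be told apart. The brighter probe of Stmn1, the gene of stathmin, had log2 levels of 4.56 and 3.34 on KO 1 and KO 2, against 5.59 and 3.59 on WT 1 and WT 2, and was well above background on all 4. Its dimmer probe was well above background on WT 1 alone. Where these probes lie relative to the deletion is not given in the sources used here, so they do not check the labels. Levels throughout are log2 processed signals minus the 75th percentile of each array. Fold changes are KO minus WT on that scale.

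The labelled tissue holds other cells besides epithelium. All 8 white adipocyte, 7 fibroblast, 7 endothelial, 6 skeletal muscle and 9 basal myoepithelial markers were well above background on every array. The 10 luminal markers among the 38 genes were well above background on 10 and 9 of them on KO 1 and KO 2, against 9 and 8 on WT 1 and WT 2. The defining luminal genes Epcam, Krt8, Krt18 and Krt19 were well above background on all 4 arrays. A pair of arrays stood apart in other cell types. B cell markers had a summed signal, in units of the array's 75th percentile, of 0.568 on KO 1 and 23.8 on KO 2, against 0.845 on WT 1 and 0.677 on WT 2. T cell markers summed to 0.665 and 18.1 on the KO arrays, against 0.664 and 0.666 on the WT arrays. Of the B cell markers, Pax5 and Blk were well above background on none of the arrays. Epidermis and hair follicle markers summed to 1.21 and 1.34 on the KO arrays, against 7.79 on WT 1 and 0.514 on WT 2. Their Krt1 and Dsg3 were well above background on no array, and the hair follicle keratin Krt71 reached its highest level of 2.34 on WT 1.

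Most of the luminal genes had a lower mean on the KO arrays, by moderate amounts, and none passed the test. Of the 31 tested, 27 had a negative fold change and 4 a positive one (Krt7, Krt19, Prom1 and Tmprss2), where 50.7% of all tested genes were negative. The median log2 fold change was -0.49, with a range of -1.25 to 0.19, against a median of -0.01 over all tested genes. For 14 of the 31 (45.2%), both KO arrays lay below both WT arrays, where 17.7% of all tested genes did so, and for 0 of the 31 both KO arrays lay above, where 17.8% did so. With limma's moderated test, 0 members had an adjusted p under 0.05 (range 0.935 to 0.987), as did 0% of all 24182 probes in either direction. At an unadjusted p under 0.05 there were 3 lower members, Grhl1, Prss8 and Marveld3, where 2.41% of tested genes were lower and 1.14% higher. Normexp background correction gave a members' median of -0.24, with 18 of the 31 fold changes more than 1.5 times closer to 0 and 5 more than 1.5 times farther from it, and median scaling gave -0.30, beside an all-gene median of 0.19. After median scaling both KO arrays lay below both WT arrays for 2 of the 31, where 7.07% of genes did so. Unless another scale is named, later statements on overlap between groups refer to the main scaling, defined with the levels above. The same holds for statements that both KO arrays were lower. In whole tissue, fewer luminal cells and less of these RNAs per cell cannot be told apart.

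On the brightest probes the difference was larger on KO 2 than on KO 1. KO 2 was the lowest of the 4 arrays for 26 of the 31 genes, where it was the lowest for 22.4% of all tested genes, and it lay below KO 1 for 29 of them, where 48.6% of genes did so. It lay below both WT arrays for 26, where 32.3% of genes did so. The median of KO 2 minus the WT mean was -0.84, and that of KO 1 minus the WT mean was -0.22. KO 1 lay below both WT arrays for 16 of the 31 genes, where 38% of genes did so, and above both for 6, where 33.6% of genes did so. On the 15 other tested probes of these genes the order of the KO arrays did not hold, with KO 2 below KO 1 for 7 and KO 1 below KO 2 for 8. Those 8 probes, of 6 genes, were dim, with mean levels of -3.53 to -2.27. Over all tested genes, KO 2 lay below KO 1 for 27.7% of those with a mean level below -2 and for 53.9% of the others, a division chosen after the values were seen. Leaving out KO 2 gave a median fold change of -0.22 over the members, and leaving out KO 1 gave -0.84. Without WT 1 or WT 2 it was -0.43 or -0.58. KO 2 is the array on which B and T cell markers were high, and the part of lymphocyte RNA in the lower luminal levels was not tested. The 9 basal markers had a mean of 0.19 on KO 1 and -0.36 on KO 2 relative to their mean over the 4 arrays, against 0.25 on WT 1 and -0.08 on WT 2.

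**Figure D1:**
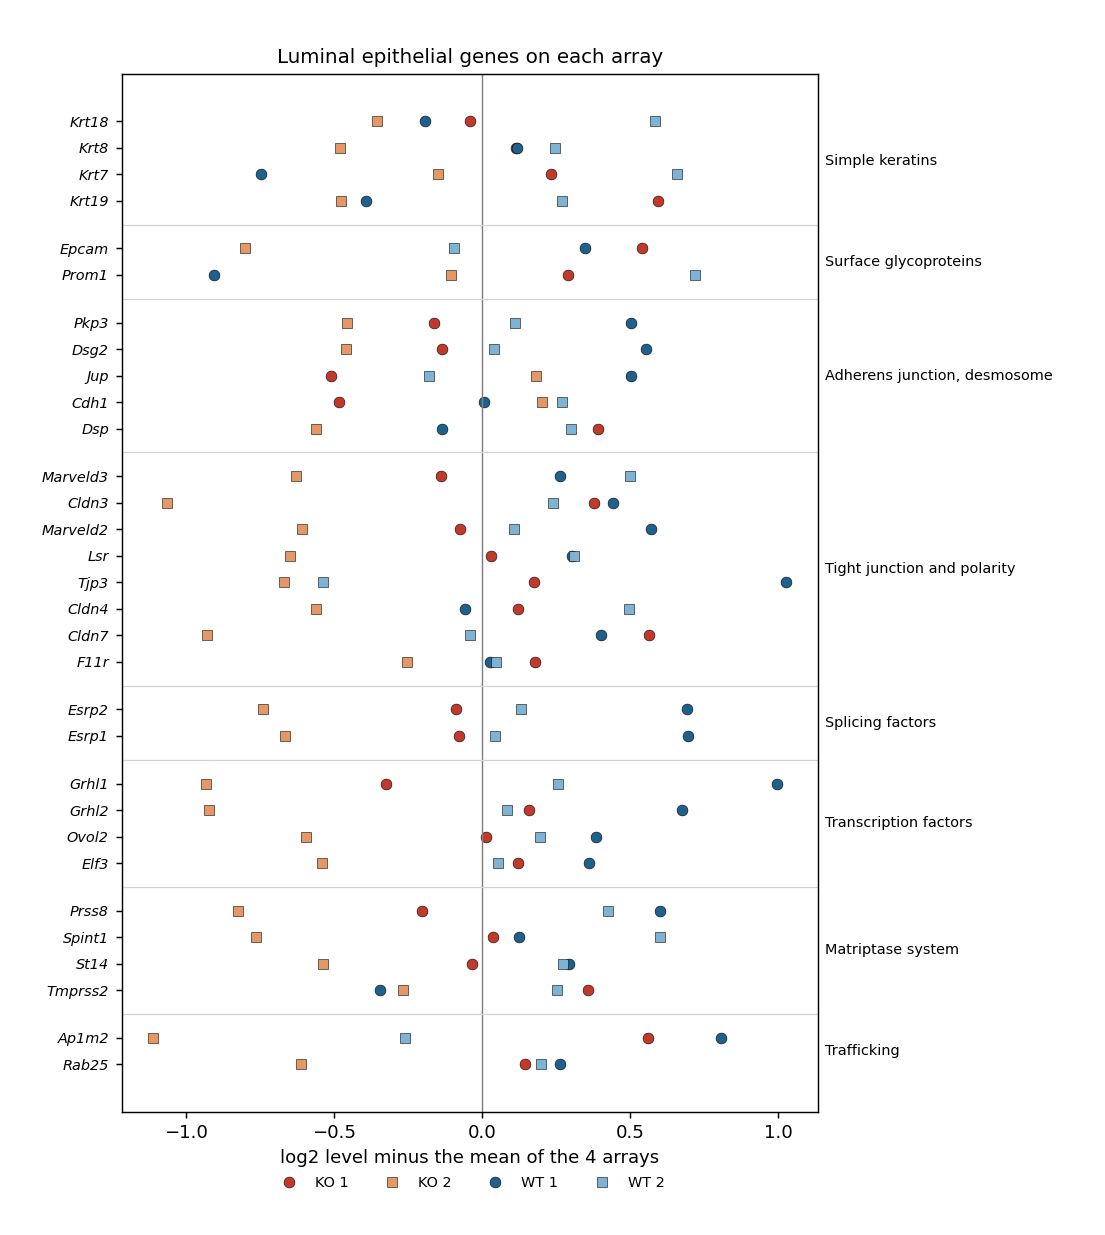
Log2 level of each of the 31 tested luminal genes on each array, as the difference from that gene's mean over the 4 arrays (horizontal axis), with 1 row per gene, grouped by role. Circles and squares are single arrays, KO in red and orange and WT in blue. KO 2 is the leftmost point in 26 of 31 rows, and KO 1 is not below both WT points in 15 of them.

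**Figure D2:**
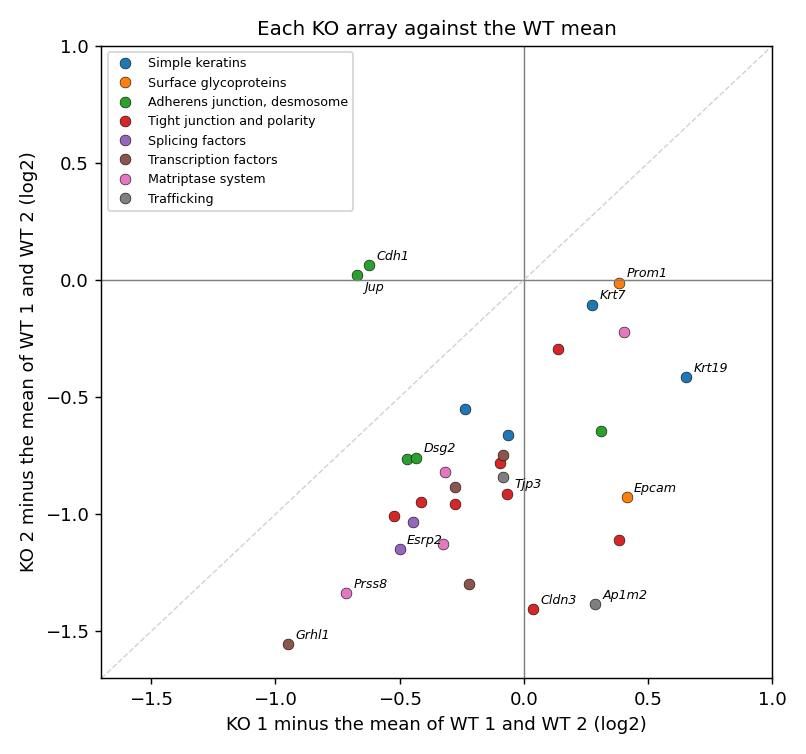
Difference of KO 1 (horizontal) and KO 2 (vertical) from the mean of both WT arrays for the 31 tested genes, on the log2 scale, coloured by role, with the dashed line marking equal values. The 2 axes share the WT arrays. 29 of 31 points lie below the line. Grhl1 and Prss8 lie at the lower left, and Cdh1 and Jup are the 2 points above the line.

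Transcription factors of the epithelial programme had a median fold change of -0.67 over the 4 tested of 5. Grhl1, a Grainyhead-like factor of surface epithelia, read 1.44 and 0.83 on KO 1 and KO 2, against 2.75 and 2.02 on WT 1 and WT 2. Both KO arrays were below both WT arrays, and the fold change was -1.25 ± 0.38 (SE, n = 2 per group, unadjusted p = 0.0194, adjusted p = 0.935), or 2.38-fold lower. Its second probe gave -1.56. Grhl1 was highest on WT 1, the array with high hair follicle markers, and its fold change without WT 1 was -0.88. Grhl2, its relative that sets epithelial junction genes in many organs, read 0.74 and -0.34 on the KO arrays, against 1.26 and 0.67 on the WT arrays. The groups overlapped, since KO 1 lay above WT 2, and the fold change of -0.76 ± 0.45 (SE) was -0.22 without KO 2. Ovol2, a zinc finger repressor of mesenchymal genes, read -1.89 and -2.49 on the KO arrays, against -1.52 and -1.71 on the WT arrays, without overlap. Its fold change was -0.58 ± 0.31 (SE), or -1.01 on a second probe annotated to another transcript. That second probe was dim, at -4.14 and -3.63 on the KO arrays, against -3.51 and -2.24 on the WT arrays. On it the WT arrays differed by more than the groups did. Elf3, an ETS factor of epithelia, had a fold change of -0.42 ± 0.33 (SE), with KO 1 at -2.22 and KO 2 at -2.88, against -1.98 and -2.29 on the WT arrays. Without KO 2 the fold change of Elf3 was -0.08. Ovol1 was too dim to be well above background anywhere.

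With the main scaling, the epithelial splicing factors read lower on both KO arrays, by an amount that depended on the background correction. Esrp1 and Esrp2 are RNA-binding proteins that keep epithelial splice forms of genes such as Fgfr2, Cd44 and Enah. Esrp2 read -1.22 and -1.87 on the KO arrays, against -0.44 and -1.0 on the WT arrays. Esrp1 read -3.33 and -3.92 on the KO arrays, against -2.56 and -3.21 on the WT arrays. For both genes the groups did not overlap with the main scaling, though KO 1 and WT 2 lay close together. With median scaling, both KO arrays lay below both WT arrays for only 2 of the 31 tested luminal genes. Esrp1 and Esrp2 were not among them. The fold changes were -0.82 ± 0.35 for Esrp2 and -0.74 ± 0.36 for Esrp1 (SE, unadjusted p = 0.0648 and 0.0914, adjusted p = 0.935 for each). With normexp they were -0.40 for Esrp2 and -0.09 for Esrp1. Splice forms themselves were not measured by these probes.

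The matriptase system had a median of -0.65 over the 4 tested of 5 genes. Prss8, which encodes prostasin, a membrane-anchored protease that works with matriptase, read -1.40 and -2.02 on the KO arrays, against -0.59 and -0.77 on the WT arrays. Its fold change was -1.03 ± 0.31 (SE, unadjusted p = 0.0193, adjusted p = 0.935), or 2.04-fold lower, with no overlap between groups. St14, which encodes matriptase, read 1.17 and 0.67 on the KO arrays, against 1.5 and 1.48 on the WT arrays. The WT arrays were nearly equal, the KO arrays were both lower, and the fold change was -0.57 ± 0.28 (SE). Spint1, the gene of the matriptase inhibitor HAI-1, read -0.25 and -1.06 on the KO arrays, against -0.17 and 0.31 on the WT arrays. KO 1 was only slightly below WT 1, and the fold change of -0.72 ± 0.37 (SE) was -1.24 on its second probe. Tmprss2, another transmembrane serine protease, read 0.79 and 0.17 on the KO arrays, against 0.09 and 0.68 on the WT arrays. It had a fold change of 0.09 ± 0.36 (SE), and -0.44 on its second probe, so the probes differed in sign.

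Tight junction and polarity genes had a median of -0.55 over the 8 tested of 11, and all 8 were negative. KO 2 was the lowest array for each of the 8. Marveld3, a tight junction membrane protein, read -0.47 and -0.96 on the KO arrays, against -0.07 and 0.17 on the WT arrays. Its fold change was -0.76 ± 0.29 (SE, unadjusted p = 0.0431), and a second probe annotated to another transcript gave -1.15. That second probe read -3.0 and -2.95 on the KO arrays, against -1.84 and -1.82 on the WT arrays, so replicates of a genotype lay close together. Marveld2, or tricellulin, which seals the corners where cells meet, read -1.48 and -2.02 on the KO arrays, against -0.84 and -1.30 on the WT arrays. Lsr, the angulin that brings tricellulin to those corners, read 3.72 and 3.04 on the KO arrays, against 4.0 and 4.0 on the WT arrays. Neither gene overlapped between groups with the main scaling. The fold changes were -0.68 ± 0.32 for Marveld2 and -0.62 ± 0.31 for Lsr (SE).

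The claudins, which form the tight junction strands, lay below both WT arrays on KO 2 alone. Cldn3 read 1.95 and 0.51 on KO 1 and KO 2, against 2.02 and 1.81 on WT 1 and WT 2, and its fold change of -0.68 ± 0.51 (SE) was 0.0375 without KO 2. Cldn7 read 2.24 and 0.75 on the KO arrays, against 2.08 and 1.63 on the WT arrays, and its fold change of -0.36 ± 0.53 (SE) was 0.38 without KO 2. Cldn4 read -2.11 and -2.79 on the KO arrays, against -2.29 and -1.73 on the WT arrays, a fold change of -0.44 ± 0.36 (SE) that was -0.10 without KO 2. For all 3 claudins KO 1 was above at least 1 WT array. Tjp3, which encodes the scaffold ZO-3, read 0.57 and -0.27 on the KO arrays, against 1.42 and -0.14 on the WT arrays, so its WT arrays differed by more than the groups did, and the fold change was 0.29 without WT 1. F11r, the junctional adhesion molecule JAM-A, read 3.03 and 2.60 on the KO arrays, against 2.88 and 2.90 on the WT arrays, and had the fold change nearest to 0 of the 8 genes, at -0.08 ± 0.27 (SE).

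Some junction genes were too dim to be tested. Cgn, which encodes cingulin, was well above background on WT 1 alone, so no fold is given. Its levels were -5.23 and -5.34 on the KO arrays, against -3.53 and -4.87 on the WT arrays. Ocln, which encodes occludin, was well above background on 1 of the 2 KO arrays and 1 of the 2 WT arrays. Its levels were -3.26 and -3.57 on the KO arrays, against -2.48 and -2.85 on the WT arrays. The polarity gene Crb3 was well above background on none of the 4.

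Desmosome genes were lower on both KO arrays in part. Pkp3, the desmosomal plaque protein plakophilin, read 1.84 and 1.55 on the KO arrays, against 2.51 and 2.11 on the WT arrays, a fold change of -0.62 ± 0.28 (SE). Dsg2, the desmosomal cadherin of simple epithelia, read -0.93 and -1.25 on the KO arrays, against -0.24 and -0.75 on the WT arrays, a fold change of -0.59 ± 0.30 (SE). Neither overlapped between groups with the main scaling. The other 3 tested probes of Dsg2 gave -0.55 to -0.89 and were dim, with mean levels of -2.68 to -3.53. Of these, the probe at -0.89 was not well above background on KO 1. On the probe at -0.55 the groups overlapped. Dsp, desmoplakin, which links desmosomes to keratins, read 1.88 and 0.92 on the KO arrays, against 1.35 and 1.78 on the WT arrays. The KO arrays lay on either side of both WT arrays, and the fold change was -0.17 ± 0.40 (SE).

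The adherens junction genes were dim and did not follow the others. Cdh1, which encodes E-cadherin, read -4.20 and -3.52 on the KO arrays, against -3.71 and -3.45 on the WT arrays, and was not well above background on WT 2. Jup, plakoglobin, read -3.14 and -2.45 on the KO arrays, against -2.13 and -2.81 on the WT arrays, and was also not well above background on WT 2. For both genes KO 1 was the lowest array, unlike the rest of the luminal genes, for which KO 2 or WT 1 was the lowest. Both had mean levels below -2, a range in which KO 2 lay below KO 1 for only 27.7% of all tested genes. Among the luminal genes in that range it did so for 5 of 7. Their fold changes were -0.28 ± 0.33 for Cdh1 and -0.33 ± 0.38 for Jup (SE), and each turned positive, to 0.0645 and 0.0215, without KO 1.

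The simple keratins, the abundant filament proteins of luminal cells, had a median fold change of -0.14 over 4 genes, 2 negative and 2 positive. Krt8 read 5.25 and 4.65 on the KO arrays, against 5.25 and 5.38 on the WT arrays, and Krt18, its partner, read 5.32 and 5.0 on the KO arrays, against 5.17 and 5.94 on the WT arrays. For Krt8 KO 1 lay just below WT 1, within rounding, and for Krt18 it lay above WT 1. Their fold changes were -0.36 ± 0.30 and -0.39 ± 0.35 (SE). That of Krt8 was -0.06 without KO 2 and that of Krt18 was -0.004 without WT 2, while normexp gave -0.66 and -0.65. Krt19 read 5.12 and 4.05 on the KO arrays, against 4.14 and 4.80 on the WT arrays, a fold change of 0.12 ± 0.45 (SE). Krt7 read 4.51 and 4.13 on the KO arrays, against 3.53 and 4.94 on the WT arrays, a fold change of 0.09 ± 0.51 (SE). All 4 keratins were lower on WT 1 than on WT 2, while the 4 tested transcription factors and both splicing factors were higher on WT 1, so the keratins and the regulators also went apart between the WT arrays.

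Among the surface glycoproteins, Epcam, the adhesion molecule used to sort luminal cells, read 0.78 and -0.56 on the KO arrays, against 0.59 and 0.14 on the WT arrays. KO 1 was the highest array and KO 2 the lowest, and the fold change of -0.26 ± 0.49 (SE) was 0.41 without KO 2. Prom1, a membrane protein of hormone-sensing luminal cells, read -2.08 and -2.48 on the KO arrays, against -3.28 and -1.66 on the WT arrays. Its fold change of 0.19 ± 0.57 (SE) was -0.86 on its second probe, a difference of 1.05 between probes of 1 gene. The apical mucin gene Muc1 was well above background on KO 1 alone, and no fold is given. The trafficking genes Rab25, a small GTPase of recycling endosomes, and Ap1m2, the epithelial subunit of a clathrin adaptor, had fold changes of -0.46 ± 0.33 and -0.55 ± 0.66 (SE). Rab25 read 0.05 and -0.71 on the KO arrays, against 0.17 and 0.11 on the WT arrays, and its fold change was -0.09 without KO 2. Ap1m2 read -1.60 and -3.27 on the KO arrays, against -1.35 and -2.42 on the WT arrays.

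**Figure D3:**
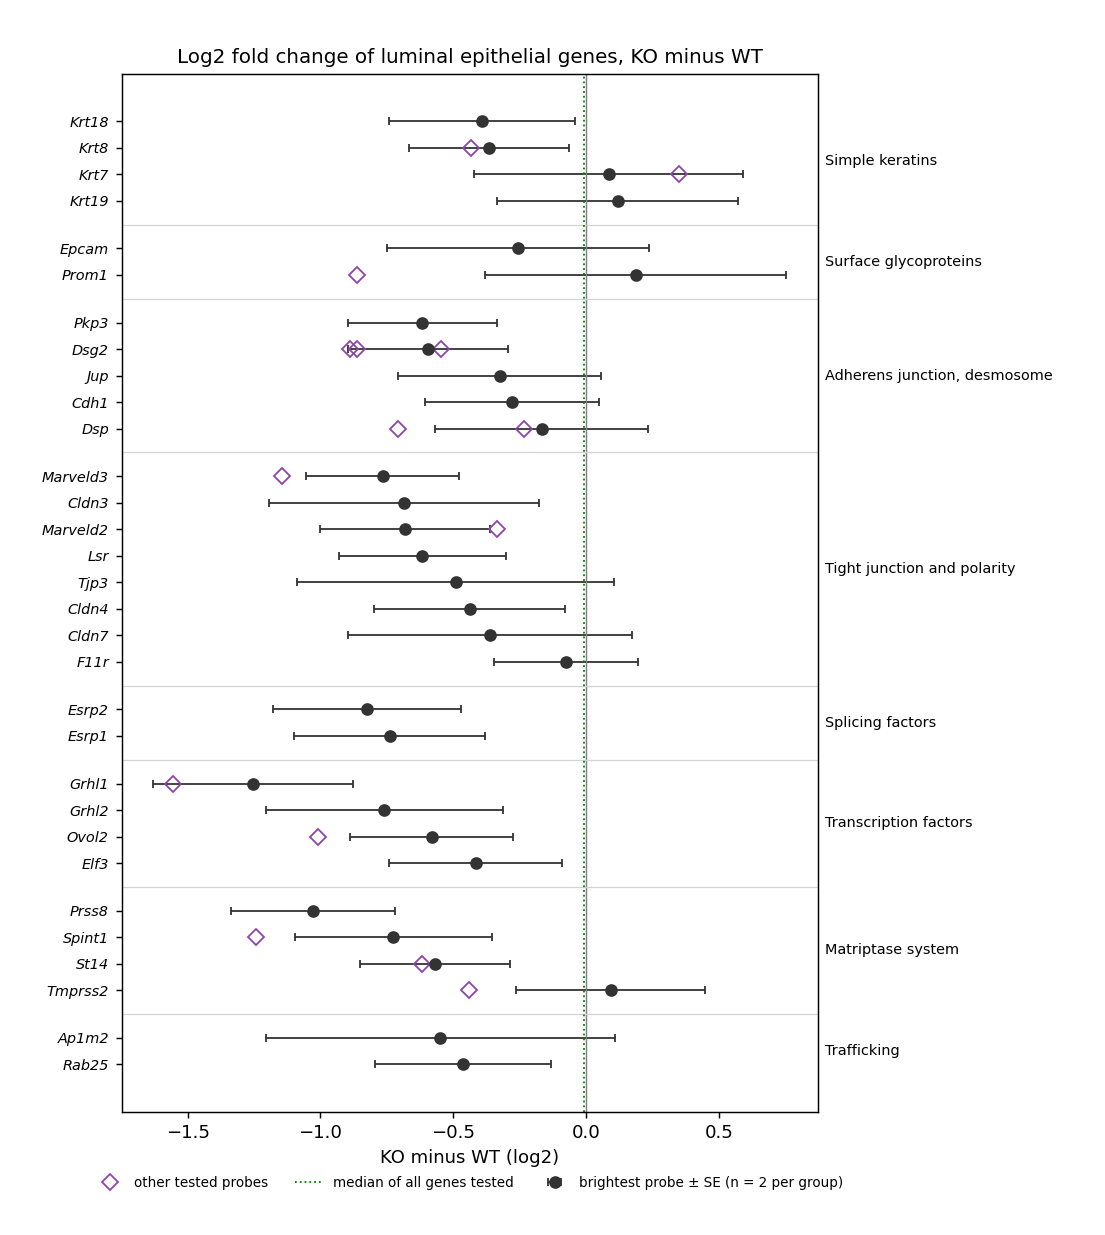
Log2 fold change, KO minus WT, of the brightest probe of each of the 31 tested genes (filled points, bars ± SE, n = 2 per group), with other tested probes of the same genes as open diamonds and the median of all tested genes as a dotted line. 27 of 31 filled points lie left of 0, from Grhl1 at -1.25, and Krt7, Krt19, Prom1 and Tmprss2 lie right of 0 with bars that cross it.

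Other probes of the same genes were mostly negative too. There were 15 other tested probes for 12 of the genes, and 14 of the 15 had a negative fold change, the exception being Krt7 at 0.35. On their brightest probes, 50.7% of all tested genes were negative. The share among other or dim probes of all genes was not computed. Of the 15 probes, 10 had a mean level below -2, and 1 each of Dsp and Dsg2 was not well above background on KO 1. For 4 probes, of Prom1, Dsp, Tmprss2 and Spint1, the value differed by more than 0.5 from that of the brightest probe, each time towards a lower value. The probes of a gene read the same 4 RNA samples, so they are not further replicates.

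Set against Krt8 and Krt18, a few of the genes still read lower on both KO arrays. With the mean of Krt8 and Krt18 subtracted on each array, a mean that was itself -0.38 in KO minus WT, the other 29 tested genes had a median of -0.17, and 19 of the 29 were negative, where 16.4% of all tested genes were. For 4 of the 29, Grhl1, Prss8, Marveld3 and Spint1, both KO arrays were below both WT arrays on this scale, where 1.86% of all tested genes were. Of the 6 tested transcription and splicing factors, Grhl1 alone was among these 4. The differences in this measure were -0.87 for Grhl1, -0.45 for Esrp2, -0.38 for Grhl2, -0.36 for Esrp1, -0.20 for Ovol2 and -0.04 for Elf3. They were -0.65 for Prss8, 0.50 for Krt19, 0.46 for Krt7 and 0.57 for Prom1. No test was made on these differences.

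Other genes of junctions and epithelium were read from the same fit, in which none passed the test. Of 38 further junction genes 34 were tested, 26 of them negative and 8 positive, with a median of -0.21, and both KO arrays were below both WT arrays for 6 (17.6%), close to the 17.7% of all genes. Among those with the smallest unadjusted p-values were the claudin gene Cldn10, with a fold change of -1.15 ± 0.31, Nectin4, an adherens junction receptor, with -0.66 ± 0.28, and Cldn8, another claudin gene, with -0.74 ± 0.41 (SE). Of 30 further epithelial genes 28 were tested, 24 of them negative and 4 positive, with a median of -0.58 and no overlap between groups for 14 lower genes (50%), against 17.7% of all tested genes. Map7, a microtubule-associated protein of epithelia, read -1.34 and -1.23 on the KO arrays, against -0.04 and 0.07 on the WT arrays, a fold change of -1.30 ± 0.24 (SE). Map7 was named because it had the smallest unadjusted p of the 28. Close arrays within a genotype and a gap between genotypes are what that choice picks. Its adjusted p was 0.935. Plekha7, a junction protein that anchors microtubules, had -1.05 ± 0.31, Galnt3, a glycosyltransferase, had -1.44 ± 0.43, and Gata3, the luminal transcription factor, had -0.89 ± 0.28 (SE). Plekha7 was dim, at -4.22 and -3.64 on the KO arrays, against -2.75 and -3.02 on the WT arrays. Nectin4 was dim too, at -4.02 and -3.81 on the KO arrays, against -3.02 and -3.48 on the WT arrays.

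Genes around the matriptase and splicing systems gave smaller shifts as a group. Of 18 listed, 14 were tested, with 9 negative, 5 positive, a median of -0.27 and both KO arrays lower for 6 (42.9%), where 17.7% of all tested genes were. Tmprss13, a protease of the same family as matriptase, had a fold change of -1.20 ± 0.35, Scnn1b, a subunit of the epithelial sodium channel, had -0.65 ± 0.25, Enah, an actin regulator with an epithelial splice form, had -0.60 ± 0.26, and Hpn, the protease hepsin, had -0.58 ± 0.28 (SE). Scnn1b was dim, at -3.18 and -2.96 on the KO arrays, against -2.46 and -2.38 on the WT arrays.

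Repressors of the epithelial programme and mesenchymal genes were mostly lower on the KO arrays as well. Of 14 listed, 12 were tested, with 9 negative, 3 positive and a median of -0.25, and both KO arrays were below both WT arrays for 7 (58.3%), where 17.7% of all tested genes were. Snai1, a repressor that binds the E-box, had a fold change of 0.41 ± 0.32, and Twist1 had -0.37 ± 0.28 (SE). Snai1 read -0.69 and -1.38 on the KO arrays, against -1.42 and -1.46 on the WT arrays. It was the only 1 of the 12 with both KO arrays above both WT arrays, where 17.8% of all tested genes were. Zeb1, named after its values were seen because it binds the same site, read 2.33 and 2.50 on the KO arrays, against 1.76 and 2.33 on the WT arrays, a fold change of 0.37 ± 0.30 (SE). For Zeb1, KO 1 and WT 2 were equal within rounding. The other tested ZEB and SNAI genes, also named after their values were seen, had lower means on the KO arrays. Their fold changes were -0.10 ± 0.29 for Zeb2 and -0.28 ± 0.27 for Snai2 (SE), and Snai2 did not overlap between groups. The matrix gene Fn1 had -0.98 ± 0.24 and the mesenchymal cadherin gene Cdh11 had -0.57 ± 0.25 (SE). Of the luminal genes tested, 16 with an E-box in a promoter window had a median fold change of -0.40. The 5 with a window but no E-box had -0.58, and the ranges of -0.68 to 0.19 and -1.25 to 0.09 overlapped. The remaining tested luminal genes, among them Prss8, Marveld3, Esrp1 and Esrp2, had no window and are in neither group.

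Markers of other cells gave the values beside which these shifts stand. The fibroblast list had a median of -0.59 over 7 genes, with both KO arrays lower for 6 (85.7%), where 17.7% of all tested genes were, and Col3a1, Col1a1 and Col1a2, the fibrillar collagen genes, had fold changes of -0.70 ± 0.24, -0.66 ± 0.28 and -0.59 ± 0.25 (SE). The macrophage receptor Cd163 had -1.14 ± 0.25 (SE), the smallest unadjusted p of all the markers. The summed signal of the fibroblast list was 249 and 258 on the KO arrays, against 385 and 379 on the WT arrays. White adipocyte markers had a median of -0.02 over 8 genes and endothelial markers -0.24 over 7, and basal markers had -0.28 over 9. The luminal genes were not the only group with a lower mean on the KO arrays. WT 1 was the highest array for 16 of the 31 luminal genes, where 25.5% of tested genes were highest on it, and these 16 included all 4 tested transcription factors and both splicing factors. It was also the array with high hair follicle markers, and the part of skin RNA in those levels was not tested.

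**Figure D4:**
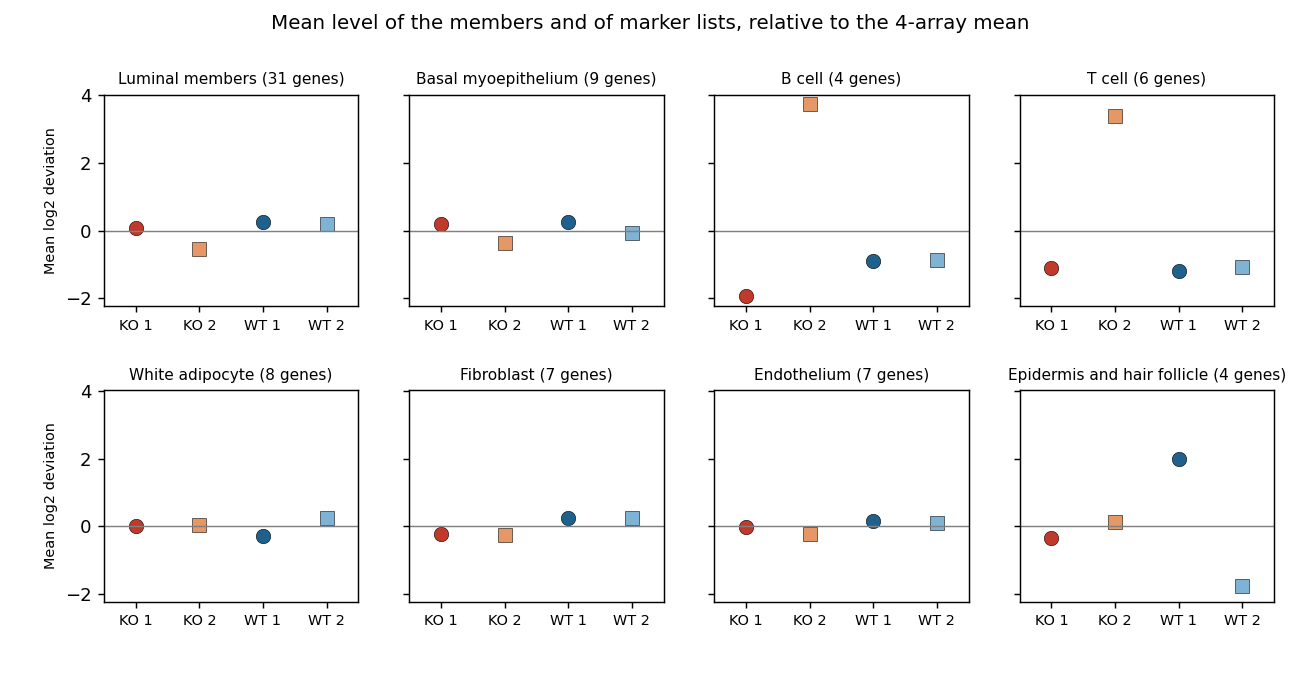
Mean log2 level of the tested luminal genes and of 7 marker lists on each array, relative to each list's mean over the 4 arrays, with 1 point per array, KO left and WT right. The luminal genes run from -0.56 on KO 2 to 0.26 on WT 1, while B and T cell markers reach 3.73 and 3.39 on KO 2 and epidermis and hair follicle markers reach 2.0 on WT 1 and -1.77 on WT 2.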

How the data were processed

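Cy3-labelled mammary gland RNA was measured on 4 one-colour arrays, 2 KO and 2 WT. Spot intensities were deposited by the authors as Agilent Feature Extraction files. The file headers name version 11.5.1.1, while the submitters' processing notes name 10.7.3.1. The processed signal intensity is background-subtracted within each array, per the file headers. A second deposited file holds the authors' log2 values. The series' design text names GeneSpring for the analyses and no further step. The table matched quantile-normalized log2 signals centred on each probe's median (r of at least 0.99999, median absolute difference no more than 0.00031), which settles scale, centring and direction. Column medians of it were 0.00626 and -0.00958 for KO 1 and KO 2, and -0.018 and 0.0183 for WT 1 and WT 2.

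Left out were control spots and, per array, 35 to 73 outlier-flagged spots, spots of a probe were averaged, and 41168 probes with a value on every array were kept. Levels are log2 processed signals minus the array's 75th percentile. Accessions without version were matched to RefSeq (GRCm38.p6), which named 27812 probes and left 13356 unnamed. Tested were 24182 probes that both arrays of 1 or both groups read well above background. The comparison used limma's moderated test (3.58.1, R 4.3.3) without covariates, with p-values adjusted by Benjamini-Hochberg across these probes at a threshold of 0.05. It was checked on simulated data with changes larger than that of any member, so the check does not cover changes of the members' size. The number of arrays limits the precision. The members, the lists and the tests were chosen with earlier results of these data known. Named genes are all members, Stmn1 and, per further list (all cell type markers as 1 list), the 4 tested genes with the smallest unadjusted p. A gene that this rule names is not reported here. Alternatives covered normalization, background correction, the filter, the probe rule, the authors' table, a replicate block and each array left out.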

Additional observations from a re-analysis of the deposited data

How the results depend on the processing

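No member passed the test under any of the 12 alternatives that were fitted. Normexp used the median spot signal, because the files hold no mean signal. Median scaling alone gave calls over all probes, 1 higher (an unnamed probe) and 3 lower (Slc6a2, Csn1s2a and Scrg1). The cause was not tested. Every other setting gave 0 in each direction, as did an adjusted p under 0.1. The median fold change of the members was -0.51 after quantile normalization and in the authors' table, -0.24 with normexp, -0.30 after median scaling and -0.52 without the filter. Median scaling shifts every fold change by the same amount, the median of all genes to 0.19. The count of members with both KO arrays below both WT arrays was 2 of 31 after median scaling, where 7.07% of genes did so, and, with 1 array left out at a time, ran from 16 to 26. It was 26 without KO 1, where 32.3% of genes did so, 16 without KO 2 (38%), 19 without WT 1 (32.7%) and 20 without WT 2 (33.5%). The median then ran from -0.84 to -0.22, and the lone array is assumed to vary like the others. Leaving out Cdh1 and Jup, chosen after seeing the data, gave a median of -0.55.

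Of 246 fold changes of members with every array kept, 241 kept their direction and none passed the threshold. Part of this count was fixed in advance. The filter settings and the replicate block use the same levels and probes, so they cannot move a member's fold change. The authors' table nearly repeats quantile normalization. The 5 that turned were Dsp at 0.0265 and F11r at 0.12 under median scaling, Prom1 at -0.34 and Tmprss2 at -0.17 with the mean of all probes, and Krt7 at -0.00023 with normexp. With 1 array left out, 105 of 124 kept direction. Ranges that crossed 0 were -1.38 to 0.29 for Ap1m2, -0.62 to 0.0645 for Cdh1, -1.41 to 0.0375 for Cldn3, -1.11 to 0.38 for Cldn7, -0.64 to 0.31 for Dsp, -0.93 to 0.41 for Epcam, -0.29 to 0.14 for F11r, -0.67 to 0.0215 for Jup, -0.42 to 0.65 for Krt19, -0.62 to 0.79 for Krt7, -0.62 to 0.998 for Prom1, -1.27 to 0.29 for Tjp3 and -0.22 to 0.40 for Tmprss2.

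The labels number arrays 1 and 2 in both groups without saying that a number links samples. Deviations of same-numbered arrays from their group means correlated with r = 0.0648 over the 24182 tested probes. With a replicate block 0 probes passed the threshold in either direction, with a smallest adjusted p of 0.865. In this balanced design a block cannot move a fold change or an overlap, so the median of -0.49 and the count of 14 are as without it.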
